A study of Mus musculus with 20 samples.

Results

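Liver transcript levels of 5 NZO/Hl mice (NZO here) were compared with those of 5 C3H mice, which are 10 of the 20 mice in a microarray study of 4 inbred strains. Mice were assigned to a group by the strain in their label, and each mouse had its own whole-transcript array. All 10 were males of 6 weeks, and from weaning at 21 days all were fed a diet in which fat gave 45% of the calories, protein 20% and carbohydrate 35%. The NZO mice came from the German Diabetes Centre in Dusseldorf and the C3H mice from the Jackson Laboratory, so that strain and breeding source cannot be told apart. All 20 mice shared diet, age and sex, and the body weights of these mice were not given in the labels. The array data were collected to pick candidates for a study of Nudt19, a peroxisomal enzyme that splits coenzyme A, and none of these mice carried a knockdown. The other arrays, of C57/Bl6 (B6 here) and 129P2/OlaHsd (129P2 here), served here to estimate the spread and as levels set beside the comparison.

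The New Zealand Obese mouse becomes obese through many genes and is prone to fatty liver and, in males, to diabetes, whereas C3H is a common laboratory strain. Liver makes most plasma proteins, including the acute phase proteins that hepatocytes secrete under interleukin-6 and interleukin-1. It also synthesizes fatty acids from sugar, turns cholesterol into bile acids and clears steroids and foreign compounds through cytochromes P450 and transferases.

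Levels are log2 signals, so that a difference of 1 log2 unit is a 2-fold difference. Strain means are given ± SD (n = 5), and differences are NZO minus C3H ± SE from a limma fit over all 4 strains, with p-values adjusted over 14190 tested genes. A gene was called where this adjusted p was under 0.05. Of 19938 genes with 1 symbol, the other 5748 were too dim to test. A gene is called dim on an array where it lay under the 40th percentile of that array. Hepatocyte markers were bright in both groups: none of 9 tested, among them Alb, the albumin gene (14.28 ± 0.04 in NZO and 14.31 ± 0.03 in C3H), was called, and their differences lay between -0.14 and 0.23. Without NZO replicate 1, 1 of these markers was called lower. The interquartile range of an array's values, which varied between arrays, was 2.33 ± 0.111 in NZO and 2.31 ± 0.088 in C3H (log2 units, exact two-sided permutation p = 0.77). Levels of different genes cannot be compared on these arrays, and sequence differences between the strains under a probe were not tested.

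NZO and C3H liver differed in 936 of the 14190 tested genes (6.6%). NZO was higher in 498 of them (3.51%) and lower in 438 (3.09%). These shares of all tested genes are to be set beside each list count below. Most of the differences were modest: 129 called genes (0.909%) reached 2-fold, 67 of them higher and 62 lower in NZO. A difference of 4-fold was reached by 8 higher and 14 lower genes. These 2-fold and 4-fold counts use the fitted difference, also for genes dim in 1 strain, for which the bound given below can be smaller. The median size of a called difference was 0.48 log2 units. For 707 of the called genes (4.98%) the 5 NZO values did not overlap with the 5 C3H values, with 394 higher and 313 lower. At an unadjusted p under 0.05 there were 2288 genes. More genes were lower than higher when array spread entered the fit (656 higher and 703 lower) and when C3H replicate 3 was left out (439 and 525). The same held without NZO replicate 1 (409 and 453), with array weights (642 and 788) and with quantile normalization (559 and 571).

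**Figure D1:**
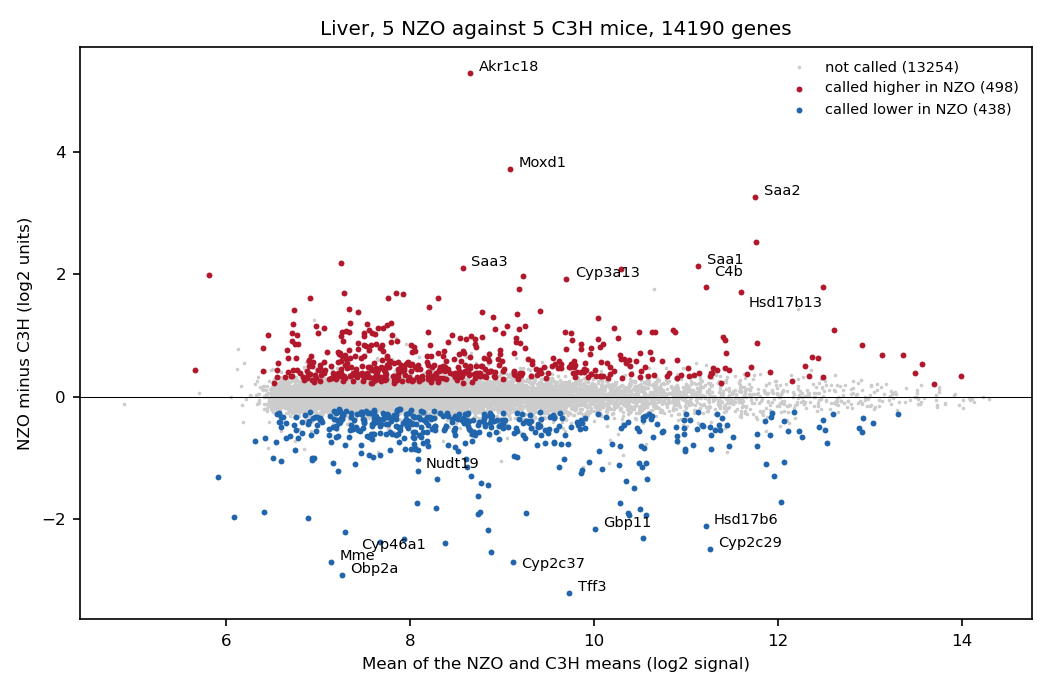
Each point is 1 of 14190 tested genes, with the mean of both strain means on the x axis (log2 signal) and the NZO minus C3H difference on the y axis (log2 units). Red points are the 498 genes called higher in NZO and blue points the 438 called lower. Most calls lie within 1 log2 unit of 0, and Akr1c18, Moxd1 and Saa2 lie farthest above and Tff3 farthest below among the labelled genes.

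**Figure D2:**
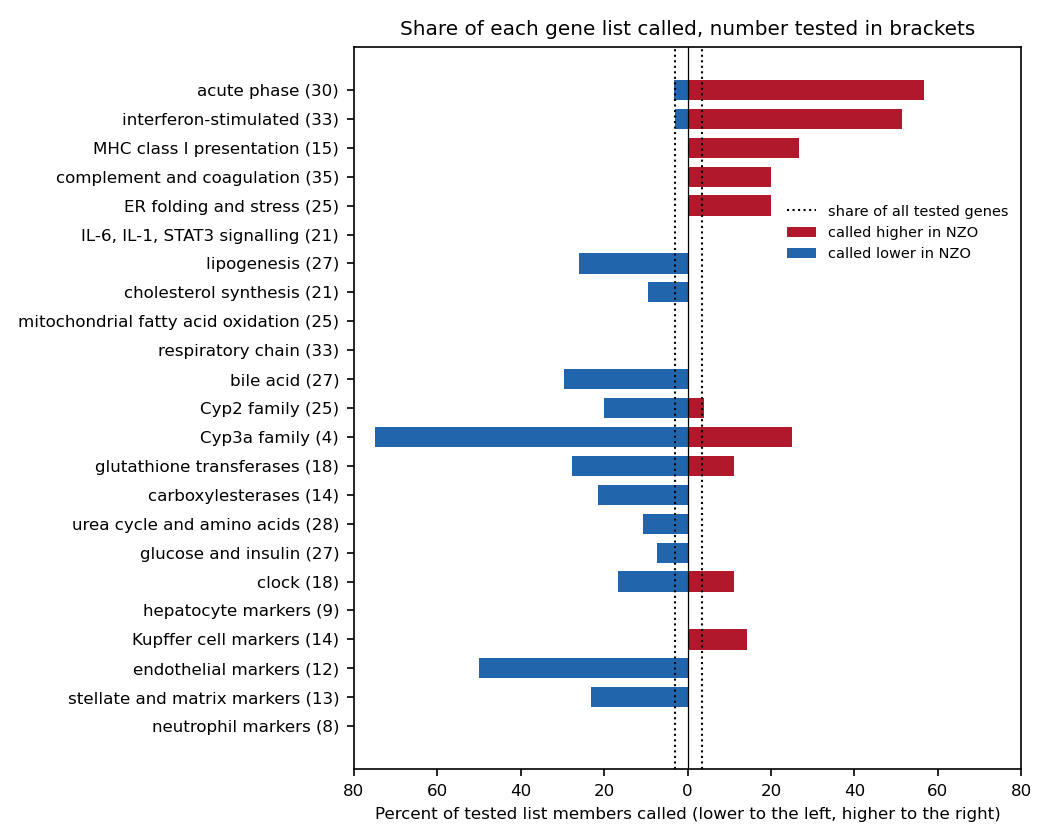
Bars give the percent of the tested members of each gene list that were called higher (to the right) or lower (to the left) in NZO, with the number tested in brackets and dotted lines at the share of all tested genes (3.51% and 3.09%). Of the acute phase genes 17 of 30 tested and of the interferon-stimulated genes 17 of 33 tested were called higher, with 1 of each called lower, and lipogenesis, bile acid and endothelial genes were called lower with none higher.

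Many acute phase genes were called higher in NZO. Of 30 tested secreted and hepatic acute phase genes, 17 were called higher and 1 lower, with a median difference of 0.47 beside -0.0033 over all tested genes. The mean of the list on each array lay between 11.37 and 12.001 in NZO and between 10.76 and 11.19 in C3H, so that the groups did not overlap. These members were largely known from earlier results of the same arrays and are no independent evidence of a direction.

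Serum amyloid A genes led the list. Their proteins bind to high-density lipoprotein, and Saa1 and Saa2 are near copies of each other whose probes may share signal. Their RefSeq promoter windows (GRCm38.p6, 250 bases before to 50 after the start, read 5′ to 3′ on the strand of the gene) are shown with TTGCNNAA, a motif of the C/EBP factors of the acute phase response, in capitals on either strand. The window of Saa1 is chr7:46742931-46743230 (minus strand), that of Saa2 chr7:46751583-46751882 (plus strand) and that of Saa3 chr7:46715627-46715926 (minus strand).
Saa1: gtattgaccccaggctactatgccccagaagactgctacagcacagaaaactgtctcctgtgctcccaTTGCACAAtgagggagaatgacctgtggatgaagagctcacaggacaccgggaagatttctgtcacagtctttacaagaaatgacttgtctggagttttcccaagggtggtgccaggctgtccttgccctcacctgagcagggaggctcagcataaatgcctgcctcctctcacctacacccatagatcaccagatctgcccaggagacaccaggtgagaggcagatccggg
Saa2: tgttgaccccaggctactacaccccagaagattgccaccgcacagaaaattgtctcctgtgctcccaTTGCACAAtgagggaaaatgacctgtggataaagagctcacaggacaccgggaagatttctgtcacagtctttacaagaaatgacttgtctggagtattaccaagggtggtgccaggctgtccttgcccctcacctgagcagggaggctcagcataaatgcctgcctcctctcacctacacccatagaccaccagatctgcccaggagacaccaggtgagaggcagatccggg
Saa3: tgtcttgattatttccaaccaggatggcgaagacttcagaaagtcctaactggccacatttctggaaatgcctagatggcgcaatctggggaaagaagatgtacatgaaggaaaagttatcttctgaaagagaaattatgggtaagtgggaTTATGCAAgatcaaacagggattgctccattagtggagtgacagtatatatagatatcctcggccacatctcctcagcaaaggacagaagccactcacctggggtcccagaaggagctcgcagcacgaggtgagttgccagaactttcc
Aligned end to end, 287 of 300 bases (95.7%) were identical between Saa1 and Saa2, and 170 of 300 (56.7%) between Saa1 and Saa3. Each window held the motif 1 time. It was found in 50% of the 12 genes of the list that were called higher and had a window, in 63.6% of the 11 that were not called, and in 10.4% of the 11218 tested genes with a window. A match is a description of these letters, not a binding site.

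Saa2 read 12.77, 13.67, 13.62, 13.30 and 13.56 in the 5 NZO mice and 9.27, 8.68, 11.66, 11.62 and 9.38 in the 5 C3H mice. NZO values were close together, whereas C3H replicates 3 and 4 lay more than 2 log2 units above the other 3 C3H mice and still below every NZO mouse. The difference was 3.26 ± 0.47 (95% interval 2.28 to 4.24, limma adjusted p = 5.43e-05). Saa1 read 11.91, 12.56, 12.24, 12.02 and 12.27 in NZO and 9.75, 8.47, 11.06, 10.95 and 10.10 in C3H, with the same 2 C3H mice highest and no overlap (2.14 ± 0.38, adjusted p = 0.000709). Saa3, which is also made outside hepatocytes, read 10.03, 10.01, 10.40, 8.69 and 8.98 in NZO and 7.12, 7.25, 8.60, 7.48 and 7.16 in C3H (2.10 ± 0.28, adjusted p = 1.77e-05). For Saa3 the groups nearly met, at 8.69 in NZO replicate 4 and 8.60 in C3H replicate 3.

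Orm2, an orosomucoid and plasma carrier of basic drugs, was higher as well. It read 11.11, 10.79, 10.38, 8.75 and 10.004 in NZO and 7.49, 7.42, 9.41, 8.96 and 7.95 in C3H, a difference of 1.96 ± 0.37 (adjusted p = 0.0011) in which NZO replicate 4 lay below C3H replicates 3 and 4. Fgl1, a fibrinogen relative that hepatocytes secrete, did not overlap between the groups, at 13.38, 13.68, 13.62, 13.02 and 13.25 in NZO and 11.50, 11.83, 11.82, 11.61 and 11.25 in C3H (1.79 ± 0.15, adjusted p = 3.54e-08). The other members called higher ran from Lbp, the lipopolysaccharide-binding protein (0.92 ± 0.18, adjusted p = 0.00177), down to Fgg, a fibrinogen chain (0.21 ± 0.062, adjusted p = 0.0472). Of the 17, 13 had no overlap of values, a share near that of all genes called higher (394 of 498). The call of Fgg, the smallest, was lost without NZO replicate 1, 2 or 3 or C3H replicate 3, 4 or 5 (adjusted p = 0.0819 to 0.134) and with no filter on dim genes, with equal array medians, with quantile normalization, with no intensity trend, with robust moderation, with only NZO and C3H arrays in the fit or with the 3 narrowest arrays left out.

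Metallothionein and hepcidin varied widely among the NZO mice. Mt2, a zinc-binding metallothionein, read 12.67, 13.93, 13.76, 11.35 and 13.42 in NZO and 12.18, 10.45, 9.23, 10.15 and 10.48 in C3H. NZO replicate 4 was lower than C3H replicate 1, and the difference of 2.53 ± 0.66 (adjusted p = 0.0196) lost its call without NZO replicate 2, 3 or 5 or C3H replicate 3 or 4 (adjusted p = 0.0505 to 0.0624) and with robust moderation or with the 3 narrowest arrays left out. Hamp, the iron hormone hepcidin, was the member called lower: it read 13.08, 9.42, 11.19, 10.47 and 11.71 in NZO and 13.14, 12.66, 12.60, 13.02 and 13.03 in C3H (-1.72 ± 0.39, adjusted p = 0.00567). C3H values were close together, and 4 of 5 NZO mice lay below all of them while NZO replicate 1 lay among them. Mt1 (1.42 ± 0.51, adjusted p = 0.113) and Lcn2, which binds bacterial iron carriers (1.76 ± 0.55, adjusted p = 0.0587), did not pass the test; both are named after their values were seen. Mt1 was called without NZO replicate 4 (adjusted p = 0.0329), and Lcn2 was called with array weights, with array spread as a covariate, with the 3 narrowest arrays left out, without NZO replicate 1 or without C3H replicate 3 or 4 (adjusted p = 0.00278 to 0.0443).

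The signalling genes above the acute phase response were not called. None of 21 tested genes of interleukin-6, interleukin-1 and STAT3 signalling passed, with differences from -0.17 to 0.36 and a median of -0.03. The receptor subunits Il6ra and Il6st differed by 0.30 ± 0.15 and -0.027 ± 0.10 (adjusted p = 0.348 and 0.96), and Osmr, the oncostatin M receptor, by 0.24 ± 0.14 (adjusted p = 0.438). Without NZO replicate 3 or 5, 1 of the 21 was called. Of 8 tested neutrophil markers, none was called either, with a median of 0.12 and Lcn2 as the largest. Without NZO replicate 1, C3H replicate 3 or C3H replicate 4, 1 of these markers was called higher. Their part in the acute phase difference was not tested.

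Many interferon-stimulated genes were called higher in NZO too. Of 33 tested, 17 were called higher and 1 lower, with a median difference of 0.41, and 30 of the 33 differences were above 0. The mean of the list on each array ran from 7.92 to 8.33 in NZO and from 7.57 to 7.76 in C3H. This count of calls rested on single mice more than that of the acute phase list: it was 9 without NZO replicate 5, 10 without NZO replicate 1 and 11 without C3H replicate 1, 3 or 5, while the median stayed between 0.32 and 0.44 over all 10 such fits.

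Ifit1, which binds viral RNA, and Rsad2, which makes an antiviral nucleotide (viperin), carry the core of the interferon-stimulated response element in their promoters. Their RefSeq windows (GRCm38.p6) are shown with this core, GAAA and GAAA again with any 2 bases between them, in capitals. It was searched on both strands and reads TTTC and TTTC where it lies on the other strand. They lie at chr19:34640639-34640938 (plus strand) and chr12:26456403-26456702 (minus strand).
Ifit1: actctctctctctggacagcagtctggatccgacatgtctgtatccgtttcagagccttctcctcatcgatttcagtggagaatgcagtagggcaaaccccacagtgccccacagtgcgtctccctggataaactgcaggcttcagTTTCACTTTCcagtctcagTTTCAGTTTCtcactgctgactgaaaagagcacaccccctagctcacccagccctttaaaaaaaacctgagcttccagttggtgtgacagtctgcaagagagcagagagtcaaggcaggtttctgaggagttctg
Rsad2: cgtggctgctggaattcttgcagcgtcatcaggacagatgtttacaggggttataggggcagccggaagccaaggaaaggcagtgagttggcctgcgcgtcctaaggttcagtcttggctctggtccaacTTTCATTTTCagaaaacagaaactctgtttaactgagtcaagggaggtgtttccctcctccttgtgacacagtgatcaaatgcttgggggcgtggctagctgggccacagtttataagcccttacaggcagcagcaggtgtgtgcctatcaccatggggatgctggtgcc
Ifit1 held the motif 2 times and Rsad2 1 time. It was found in 6 of the 12 called members with a window (50%: Ddx58, Ifih1, Ifit1, Rsad2, Trim12c and Trim30d, the last of them dim on all 10 arrays), in 8 of 11 members that were not called (72.7%) and in 3.46% of the 11218 tested genes with a window. Ddx58 lost its call without 6 of the 10 mice and Trim30d without 5. Among all genes called higher in NZO the share was 7.09% and among those called lower 4.01%.

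Irf7, the transcription factor that amplifies interferon production, read 9.76, 9.25, 9.73, 9.96 and 10.45 in NZO and 8.65, 8.66, 8.59, 9.02 and 8.48 in C3H (1.15 ± 0.20, adjusted p = 0.000386). Ifit1 read 8.98, 7.89, 8.20, 8.49 and 8.62 in NZO and 7.51, 7.71, 7.46, 7.66 and 7.62 in C3H (0.85 ± 0.17, adjusted p = 0.00249), and Rsad2 read 8.51, 7.83, 7.82, 8.26 and 8.17 in NZO against 7.25, 7.14, 7.46, 7.24 and 7.28 in C3H (0.84 ± 0.16, adjusted p = 0.000943). In all 3 the NZO mice varied more than the C3H mice, and the groups did not overlap. Ifi27 and the restriction factor Trim12c were higher by 0.95 ± 0.14 and 1.01 ± 0.15 (adjusted p = 7.23e-05 and 0.000105). Trim12c was dim on 1 C3H array. Set beside the other strains, Irf7 was at 9.83 ± 0.44 in NZO and 8.68 ± 0.20 in C3H, with 9.65 ± 0.37 in B6 and 8.31 ± 0.36 in 129P2.

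The antiviral GTPases Mx1 and Mx2, neighbours on chromosome 16, went opposite ways. Mx1 read 8.43, 7.13, 7.002, 6.90 and 7.75 in NZO and 5.94, 6.11, 6.20, 6.21 and 5.71 in C3H, dim on all 5 arrays, and NZO was at least 1.75-fold higher (adjusted p = 4.77e-05). No C3H array counted towards the filter on dim genes for Mx1, so that its test depended on arrays where it was brighter. It was tested in 17 of the 24 alternatives and is 1 of the 17 interferon-stimulated genes called higher. Mx2 read 4.98, 5.21, 5.01, 5.15 and 5.22 in NZO, dim on all 5 arrays, and 7.07, 7.20, 7.07, 7.10 and 6.92 in C3H, so that NZO was at least 1.37-fold lower (adjusted p = 3.57e-10). Guanylate-binding proteins and immunity-related GTPases, which defend against parasites inside cells, were also split. Of 9 tested, Irgm1 was higher (0.79 ± 0.11, adjusted p = 5.36e-05) and Gbp11 lower, at 8.88, 8.87, 7.93, 9.64 and 9.30 in NZO and 11.21, 11.54, 10.51, 10.89 and 11.32 in C3H (-2.17 ± 0.32, adjusted p = 7.72e-05). The other 7 were not called, though a second gene was called higher without C3H replicate 2. Ifi203, of the Ifi200 family of DNA sensors, was lower by limma (-0.88 ± 0.20, adjusted p = 0.00616).

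**Figure D3:**
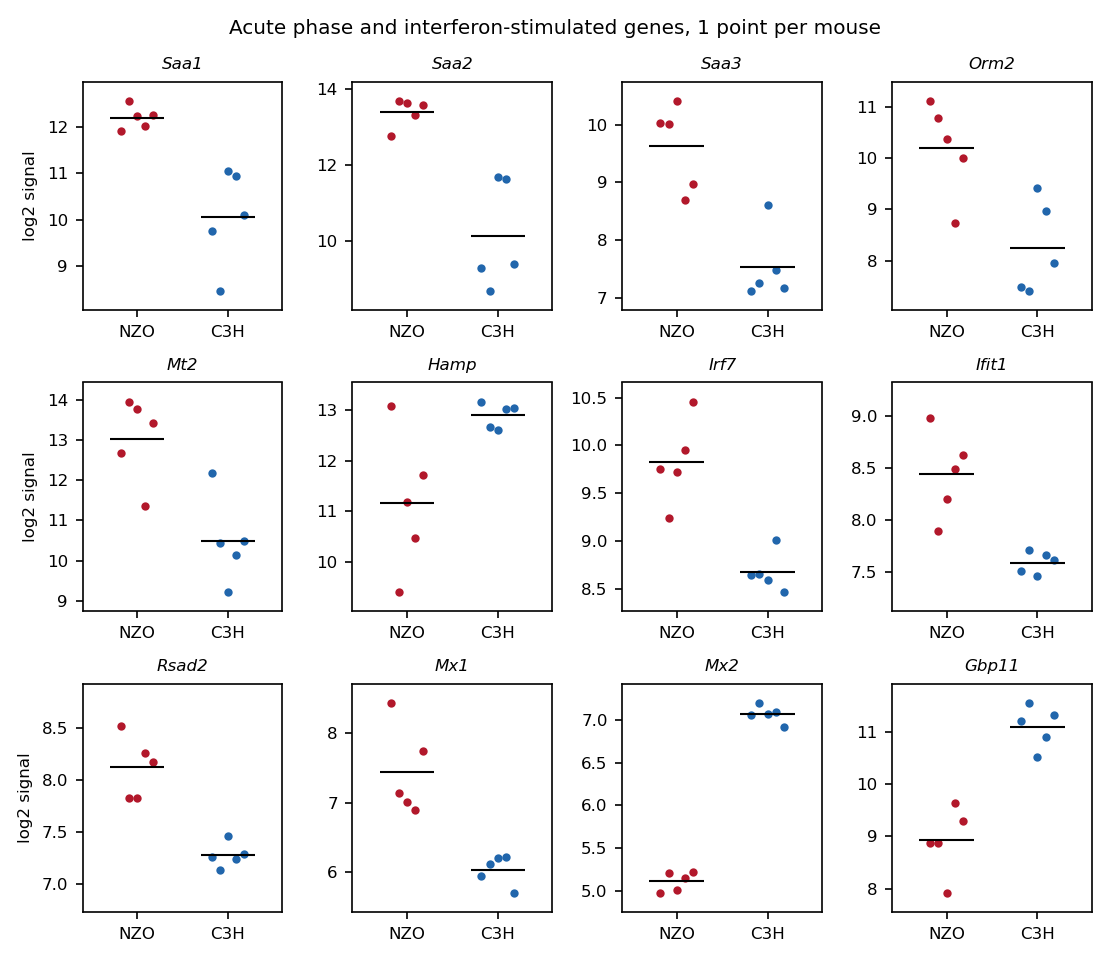
Each panel is 1 gene, with log2 signal on the y axis, 1 point per mouse and a line at the strain mean, for 5 NZO and 5 C3H mice. C3H replicates 3 and 4 stand above the other C3H mice for Saa1, Saa2 and Orm2, 4 of 5 NZO mice lie below C3H for Hamp, and Mx1 and Mx2 differ in opposite directions.

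Of the tested genes of antigen presentation, 4 neighbours on chromosome 17 were called higher. Psmb8, a subunit of the immunoproteasome, read 9.78, 9.18, 9.19, 9.40 and 9.28 in NZO and 8.44, 8.70, 8.54, 8.61 and 8.71 in C3H (0.76 ± 0.11, adjusted p = 3.99e-05). Its neighbours Tap1 and Tap2, which pump peptides into the endoplasmic reticulum, differed by 0.48 ± 0.10 and 0.35 ± 0.066 (adjusted p = 0.00392 and 0.00121). Psmb9, another immunoproteasome subunit, differed by 0.39 ± 0.10 (adjusted p = 0.014), a call that was lost without C3H replicate 1 (adjusted p = 0.0562). These 4 are consecutive tested genes, and they are the 4 called of 15 tested genes of MHC class I presentation (median difference 0.17). Of 8 tested class II genes none was called, with a median of 0.33 and differences up to 0.65, and 1 was called without C3H replicate 3.

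Complement component C4, which tags surfaces for clearance, differed with no overlap between the strains. C4b read 12.47, 12.04, 12.12, 11.98 and 11.97 in NZO and 10.25, 10.37, 10.35, 10.39 and 10.27 in C3H (1.79 ± 0.091, a 3.46-fold difference, adjusted p = 4.31e-12). C4a, a near copy of C4b, read 10.48, 9.86, 10.08, 10.05 and 9.87 in NZO and 8.01, 7.96, 8.81, 8.51 and 8.26 in C3H (1.76 ± 0.15, adjusted p = 3.7e-08), and how far their probes share signal was not tested. Between them in the gene order lies Cyp21a1, the steroid 21-hydroxylase gene, which was dim on 2 C3H arrays and higher by 1.05 ± 0.17 (adjusted p = 0.000212). Beside these values C4b was at 12.07 ± 0.10 in B6 and 12.15 ± 0.14 in 129P2, both near NZO.

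Of 35 tested complement and coagulation genes, C4a and C4b among them, 7 were called higher and none lower, with a median of 0.10. F12, coagulation factor XII, was higher by 0.47 ± 0.094 (adjusted p = 0.00197), and the mannose-binding lectin Mbl1 by 0.47 ± 0.13 (adjusted p = 0.0255), the latter a call that was lost without NZO replicate 3 or 4 or C3H replicate 4 or 5 (adjusted p = 0.0608 to 0.0806). The number called higher was 4 without NZO replicate 1, without C3H replicate 4 or without the 3 arrays of narrowest spread, and 4 with array medians made equal. Without C3H replicate 3 it was 5, with 1 gene called lower. Genes of folding and stress in the endoplasmic reticulum, where secreted proteins mature, were called higher for 5 of 25 and lower for none (median 0.16). Calr, the chaperone calreticulin, had the smallest p of them (0.31 ± 0.07, adjusted p = 0.00558). The count fell to 1 without C3H replicate 1, to 2 without NZO replicate 4 or with equal array medians, and to 3 without NZO replicate 3, NZO replicate 5 or C3H replicate 5. The stress sensors Ern1 and Atf6 differed by -0.073 ± 0.14 and 0.23 ± 0.10 (adjusted p = 0.895 and 0.235).

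Of 27 tested genes of fatty acid and triglyceride synthesis, 7 were called lower in NZO and none higher, with a median of -0.33 and 21 of 27 differences below 0. The mean of the list on each array lay between 9.72 and 10.23 in NZO and between 10.17 and 10.43 in C3H, with overlap. Me1, the malic enzyme that supplies NADPH for fatty acid synthesis, read 10.02, 8.89, 9.64, 10.41 and 9.31 in NZO and 10.90, 11.41, 10.80, 11.07 and 11.002 in C3H. C3H values were close together and all above the NZO mice (-1.38 ± 0.23, adjusted p = 0.000358). Elovl6, which lengthens palmitate, read 9.07, 8.66, 8.81, 9.74 and 8.96 in NZO and 9.93, 9.995, 10.14, 10.44 and 10.49 in C3H, again without overlap (-1.15 ± 0.24, adjusted p = 0.00296). Scd1, the desaturase that makes oleate, read 11.63, 11.91, 11.59, 11.11 and 10.34 in NZO and 12.51, 12.88, 11.74, 12.29 and 12.67 in C3H (-1.10 ± 0.25, adjusted p = 0.00611), with overlap between the groups.

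Acaca, the acetyl-CoA carboxylase that commits carbon to fatty acids, and the desaturase Fads2 were lower by limma too (-0.79 ± 0.16 and -0.76 ± 0.15, adjusted p = 0.00174 and 0.00246). The elongase Elovl5 differed by -0.58 ± 0.15 (adjusted p = 0.0162), a call that was lost without NZO replicate 2 (adjusted p = 0.0597) and with the 3 narrowest arrays left out. Fads1 was the last of the 7. The transcription factors above this program were not called: Srebf1 differed by -0.35 ± 0.12, Mlxipl by -0.19 ± 0.10 and Nr1h3 by 0.033 ± 0.10 (adjusted p = 0.0884, 0.394 and 0.943). Srebf1 was called with quantile normalization, with array weights, with array spread as a covariate or without C3H replicate 1 (adjusted p = 0.0325 to 0.0465). Fasn, the fatty acid synthase, read 9.87, 9.36, 9.95, 10.43 and 9.60 in NZO and 10.31, 10.78, 10.59, 11.13 and 11.15 in C3H (-0.95 ± 0.30, adjusted p = 0.0557); it is named after its values were seen. Fasn was called with quantile normalization, with array weights, with only NZO and C3H arrays in the fit, with array spread as a covariate, without NZO replicate 4 or without C3H replicate 1 (adjusted p = 0.00519 to 0.0457).

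All 21 tested genes of cholesterol synthesis had negative differences (median -0.23), but the differences of genes on the same arrays are not independent. The mean of the list on each array lay between 9.93 and 10.46 in NZO and between 10.16 and 10.66 in C3H, with overlap. Only Sc5d, the lathosterol desaturase (-0.67 ± 0.12, adjusted p = 0.000734), and Insig2, which holds back the SREBP factors (-0.89 ± 0.22, adjusted p = 0.0151), were called (9.52%, beside 6.6% of all tested genes). The call of Insig2 was lost without NZO replicate 3 (adjusted p = 0.0584) and with the 3 narrowest arrays left out. Genes of mitochondrial fatty acid oxidation were not called in either direction (0 of 25, median -0.12), and neither were those of the respiratory chain and mitochondrial redox defence (0 of 33, median -0.12). Most differences in these 2 lists were below 0 too, 19 of the 25 and 30 of the 33. With array weights, and likewise with array spread as a covariate, 4 of the 25 oxidation genes were called lower and 1 higher, and 2 were called lower with quantile normalization, 1 with only NZO and C3H arrays in the fit and 3 with the 3 narrowest arrays left out. Of the 33 respiratory chain genes 4 were called lower with array weights and 2 with the spread covariate. Without C3H replicate 3, 3 of the 25 oxidation genes were called lower, and without C3H replicate 2, 1 was called higher. Without NZO replicate 1, 2 of the 33 respiratory chain genes were called lower. Cpt1a, which admits fatty acids to mitochondria, differed by -0.16 ± 0.10 (adjusted p = 0.511) and was named after its value was seen.

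Hsd17b13, a retinol dehydrogenase on lipid droplets, differed with little spread within the strains. It read 12.55, 12.34, 12.40, 12.43 and 12.51 in NZO and 10.79, 10.96, 10.46, 10.73 and 10.77 in C3H (1.70 ± 0.10, adjusted p = 3.68e-11). Its levels in B6 (12.43 ± 0.17) and 129P2 (12.32 ± 0.18) were beside that of NZO, and C3H stood below. Fabp1, the main fatty acid-binding protein of liver, was lower in NZO by limma (-0.43 ± 0.083, adjusted p = 0.00153). The perilipins Plin1, Plin2 and Plin3, which coat the droplets, differed by -0.12 ± 0.10, -0.02 ± 0.13 and -0.16 ± 0.10 (adjusted p = 0.652, 0.978 and 0.492). Among lipoprotein genes, Scarb1, the receptor that takes up cholesterol from high-density lipoprotein, was lower (-0.73 ± 0.10, adjusted p = 4.62e-05), and so was Sort1, a sorting receptor (-0.63 ± 0.14, adjusted p = 0.00743). Of 24 tested genes of apolipoproteins and lipoprotein handling 3 were lower and 1 higher (16.7%, beside 6.6% of all tested genes). The one called higher, Vldlr, the receptor for very low density lipoprotein, dim on 2 C3H arrays (0.42 ± 0.11, adjusted p = 0.0162), was no longer called without NZO replicate 3 or C3H replicate 1.

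Bile acid genes were called in 1 direction. Of 27 tested genes of bile acid synthesis, transport and regulation, 8 were lower in NZO and none higher (median -0.16). The mean of the list on each array lay between 10.03 and 10.34 in NZO and between 10.30 and 10.63 in C3H, with overlap. Among the enzymes, Cyp39a1, an oxysterol hydroxylase, read 5.77, 6.75, 6.51, 5.44 and 6.49 in NZO, dim on 4 arrays, and 8.45, 8.53, 8.29, 8.62 and 8.13 in C3H (-2.21 ± 0.26, adjusted p = 4.27e-06). Cyp27a1, the first enzyme of the acidic pathway, and Cyp8b1, which makes cholic acid, differed by -0.46 ± 0.11 and -0.53 ± 0.13 (adjusted p = 0.0104 and 0.0146). The call of Cyp8b1 was lost without NZO replicate 2 (adjusted p = 0.0535). Cyp7a1, the rate-limiting enzyme of bile acid synthesis, read 9.02, 9.66, 11.32, 10.30 and 9.92 in NZO and 10.20, 10.59, 9.21, 10.91 and 11.04 in C3H, with wide overlap (-0.34 ± 0.41, adjusted p = 0.8).

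Among the transporters, Abcc3, which exports conjugates to blood, read 8.64, 8.10, 8.22, 8.33 and 8.31 in NZO and 10.27, 10.86, 9.65, 9.80 and 10.49 in C3H. All NZO mice were below all C3H mice (-1.89 ± 0.19, adjusted p = 2.3e-07). Abcb11, the bile salt export pump, read 11.95, 11.58, 11.59, 11.39 and 11.47 in NZO and 12.28, 12.46, 12.001, 12.25 and 12.17 in C3H (-0.63 ± 0.11, adjusted p = 0.000331). The uptake carrier Slco1a4 was lower as well (-0.96 ± 0.21, adjusted p = 0.00564). Cyp46a1, the cholesterol 24-hydroxylase best known from brain, was not on that list and was lower still, at 7.09, 7.18, 7.21, 7.32 and 7.12 in NZO and 9.77, 10.48, 8.73, 9.26 and 9.63 in C3H (-2.39 ± 0.18, adjusted p = 5.44e-09). Its level was 7.02 ± 0.11 in B6 and 7.18 ± 0.07 in 129P2.

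Cytochromes P450 of the Cyp2c and Cyp3a families, which oxidize drugs, steroids and fatty acids, were called in both directions within each family. Cyp2c37 read 7.85, 7.55, 8.06, 7.47 and 7.91 in NZO and 10.53, 11.03, 9.99, 10.10 and 10.67 in C3H (-2.70 ± 0.22, adjusted p = 1.75e-08), and Cyp2c29 read 10.75, 8.11, 10.67, 9.88 and 10.66 in NZO against 12.32, 12.89, 12.42, 12.02 and 12.85 in C3H (-2.49 ± 0.33, adjusted p = 2.25e-05). NZO replicate 2 was the lowest for Cyp2c29, and neither gene overlapped between the groups. Cyp2c50 and Cyp2c54 were lower by similar amounts (-1.94 ± 0.28 and -1.93 ± 0.30, adjusted p = 5.26e-05 and 0.000155), and with Cyp2c37 they are 3 consecutive tested genes on chromosome 19. Cyp2c39 of the same family was higher, at 10.80, 9.47, 10.99, 9.78 and 9.53 in NZO and 8.72, 10.10, 8.27, 8.13 and 8.36 in C3H (1.40 ± 0.33, adjusted p = 0.00827), with overlap. These genes resemble each other closely, and how far their probes share signal was not tested.

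All 4 tested Cyp3a genes were called. Cyp3a13 was higher, at 10.88, 10.93, 10.73, 10.18 and 10.58 in NZO and 8.69, 8.80, 8.61, 8.87 and 8.72 in C3H (1.92 ± 0.12, adjusted p = 1.21e-10), whereas Cyp3a11, Cyp3a25 and Cyp3a44, 3 consecutive tested genes on chromosome 5, were lower. Cyp3a11, the main such enzyme of mouse liver, read 10.89, 7.54, 9.32, 10.36 and 9.79 in NZO and 11.68, 11.93, 11.30, 10.85 and 11.34 in C3H (-1.84 ± 0.39, adjusted p = 0.00356). The NZO mice spread over more than 2 log2 units there, and NZO replicate 1 lay within the C3H range. Cyp3a25 and Cyp3a44 differed by -1.07 ± 0.20 and -1.09 ± 0.25 (adjusted p = 0.000995 and 0.00655). Cyp3a44 was dim on 3 NZO arrays. The receptors that switch on these genes did not pass the test in the fit of all arrays: Nr1i2, the pregnane X receptor, differed by 0.07 ± 0.075 and Nr1i3, the constitutive androstane receptor, by -0.78 ± 0.26 (adjusted p = 0.773 and 0.0782). Nr1i3 was called with only NZO and C3H arrays in the fit, without NZO replicate 3 or without C3H replicate 3 (adjusted p = 0.0293 to 0.0471).

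The Cyp4 family, which oxidizes fatty acids, had no call in 10 tested genes, with differences from -0.117 to 1.25. Of 17 genes known to be higher in male than in female liver, 1 was higher in NZO and 2 lower (17.6%, beside 6.6% of all tested genes). All mice were male. The count called higher was 2 without NZO replicate 4 or C3H replicate 2, and the count called lower was 1 without NZO replicate 2, C3H replicate 1 or C3H replicate 2. Selenbp2, a selenium-binding protein, was the higher one, at 13.16, 13.20, 13.06, 13.29 and 13.08 in NZO and 12.19, 11.79, 12.12, 12.12 and 12.11 in C3H (1.09 ± 0.16, adjusted p = 6.21e-05), and Susd4, a complement regulator, the lower one with the larger difference (-1.40 ± 0.25, adjusted p = 0.000763).

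Conjugating enzymes were mixed. Of 18 tested glutathione transferases, 5 were lower and 2 higher in NZO, all but 1 of them of the mu class. Gstm1 read 11.48, 10.93, 11.41, 11.07 and 11.67 in NZO and 12.56, 12.74, 12.44, 12.60 and 12.73 in C3H (-1.30 ± 0.14, adjusted p = 7.2e-07), and Gstm6, dim on 2 NZO arrays, differed by -2.32 ± 0.13 (adjusted p = 3.68e-11). Gstm7 went the other way, at 11.10, 11.30, 10.89, 11.16 and 11.33 in NZO and 10.14, 9.81, 10.13, 10.15 and 10.29 in C3H (1.05 ± 0.13, adjusted p = 5.18e-06). Sult1a1, which sulfates phenols, was lower (-1.24 ± 0.17, adjusted p = 3.9e-05), and the glucuronosyl- and glycosyltransferases Ugt2b37 and Ugt3a1 were higher (1.30 ± 0.24 and 1.28 ± 0.18, adjusted p = 0.00112 and 3.25e-05). Carboxylesterases, which cleave drug and lipid esters, were lower in 3 of 14 and higher in none. When 1 mouse was left out, 2 to 4 were called lower. Ces2a was the one without overlap, at 9.91, 8.54, 9.21, 9.54 and 9.86 in NZO and 10.62, 10.57, 10.23, 10.42 and 10.58 in C3H (-1.08 ± 0.21, adjusted p = 0.00194).

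Enzymes of steroid turnover held the largest bounded difference. Akr1c18, which inactivates progesterone, read 11.66, 11.01, 10.91, 11.49 and 11.41 in NZO and 6.03, 6.24, 6.02, 5.91 and 5.88 in C3H, dim on all 5 C3H arrays and at least 25.3-fold higher in NZO (adjusted p = 9.8e-15). Its relative Akr1c12 was lower, at 7.09, 5.86, 6.29, 6.54 and 6.68 in NZO, dim on 3 arrays, and 8.96, 9.14, 8.63, 8.59 and 9.002 in C3H (-2.37 ± 0.15, adjusted p = 2.12e-10). Hsd17b6, which oxidizes androgens and retinol, read 10.83, 9.46, 10.38, 9.72 and 10.38 in NZO and 12.37, 12.41, 12.04, 12.23 and 12.31 in C3H (-2.12 ± 0.22, adjusted p = 3.68e-07). Hsd3b2, a hydroxysteroid dehydrogenase, read 11.49, 11.23, 11.30, 11.42 and 11.27 in NZO and 9.17, 9.52, 9.06, 9.20 and 9.32 in C3H (2.09 ± 0.16, adjusted p = 4.24e-09). The retinol dehydrogenase Rdh9 was lower (-1.30 ± 0.12, adjusted p = 1.44e-07), and the aldehyde dehydrogenase Aldh1a7 higher (0.97 ± 0.15, adjusted p = 0.000101). Of the 18 tested steroid enzymes 2 were called higher and 2 lower, and the 14 others differed by -0.26 to 0.64.

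Nudt19, the gene the study is named for, read 7.59, 7.38, 7.32, 7.42 and 7.69 in NZO and 8.71, 8.80, 8.49, 8.75 and 8.69 in C3H. The groups did not overlap, and NZO held 43.3% of the C3H signal (-1.21 ± 0.11, 95% interval -1.43 to -0.98, limma adjusted p = 6.25e-08; exact two-sided permutation p = 0.00794, the smallest that 5 against 5 mice allow). The arrays served to pick candidates, so Nudt19 may have been chosen on them. Its nearest called neighbour in the gene order of chromosome 7, Dpy19l3, a C-mannosyltransferase, was higher in NZO (1.15 ± 0.10, adjusted p = 7.46e-08). Of 18 tested genes of coenzyme A synthesis and breakdown, the pantetheinases Vnn1 and Vnn3, which release cysteamine from pantetheine, were higher. Vnn1 read 8.53, 8.25, 8.87, 8.62 and 8.59 in NZO and 7.32, 7.61, 6.71, 6.64 and 6.50 in C3H (1.61 ± 0.25, adjusted p = 0.000113), dim on 3 C3H arrays. The 15 members that were not called, among them 4 pantothenate kinases, which start the synthesis, differed by -0.303 to 0.182. Without C3H replicate 2, 1 of these was called lower.

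Peroxisomal genes were called in both directions, 2 higher and 3 lower of 30 with Nudt19 among them (16.7%, beside 6.6% of all tested genes). The number called lower ran from 2 to 4 when 1 mouse was left out. Hacl1, which shortens branched fatty acids, was higher (0.70 ± 0.13, adjusted p = 0.00112), and so was Crot, the carnitine octanoyltransferase (0.50 ± 0.10, adjusted p = 0.00182). Acnat2, an acyl-CoA N-acyltransferase, was the one gene called of 15 acyl-CoA thioesterases and acyltransferases (6.67%, beside 6.6% of all tested genes). It read 8.83, 9.89, 9.37, 8.60 and 8.87 in NZO and 6.69, 7.49, 8.06, 7.89 and 7.37 in C3H (1.61 ± 0.27, adjusted p = 0.000305).

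Single genes of growth, glucose and amino acid metabolism were called lower. Igfbp2, which binds insulin-like growth factors in plasma, read 9.26, 9.14, 9.79, 8.90 and 10.03 in NZO and 11.73, 11.60, 10.86, 11.30 and 11.10 in C3H (-1.89 ± 0.18, adjusted p = 2.06e-07). It was the 1 gene called of 11 reported NZO obesity and diabetes candidates that were tested (9.09%, beside 6.6% of all tested genes). Without C3H replicate 2, 1 of the other candidates was called higher. Igfbp7 was lower as well (-0.86 ± 0.17, adjusted p = 0.00237). Of 27 genes of glucose, glycogen and insulin response, 2 (7.41%, beside 6.6% of all tested genes) were lower and none higher: Slc2a2, the glucose transporter of hepatocytes (-0.56 ± 0.12, adjusted p = 0.00447), and Gys2, the liver glycogen synthase (-0.55 ± 0.13, adjusted p = 0.00861). With array weights 4 were called lower, and with the spread covariate 1 was called higher. The other 25, which include the insulin receptor and its substrates, differed by -0.563 to 0.288. Of 28 genes of the urea cycle and amino acid breakdown, 3 (10.7%, beside 6.6% of all tested genes) were lower. Agxt, which detoxifies glyoxylate, was at 11.21, 10.65, 10.71, 10.66 and 10.96 in NZO and 11.81, 11.65, 11.61, 11.62 and 11.78 in C3H (-0.86 ± 0.14, adjusted p = 0.000166). Ddah1, which degrades asymmetric dimethylarginine, was lower too (-0.96 ± 0.20, adjusted p = 0.00295), with 8.65 ± 0.43 in NZO and 9.61 ± 0.45 in C3H beside 11.46 ± 0.15 in B6 and 11.12 ± 0.32 in 129P2.

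Clock genes were called in both directions, though most of these calls rested on single mice. Of 18 tested, 2 were higher in NZO and 3 lower, with a median of -0.28, and the mean of the list ran from 8.48 to 8.66 in NZO and from 8.69 to 9.04 in C3H. Nr1d1, the repressor REV-ERB alpha, read 11.26, 11.05, 11.30, 10.99 and 11.29 in NZO and 12.03, 11.69, 11.44, 11.84 and 12.17 in C3H, without overlap (-0.66 ± 0.15, adjusted p = 0.00791). Arntl, the activator BMAL1 whose transcription REV-ERB alpha represses, read 8.67, 7.99, 7.93, 7.84 and 8.02 in NZO and 7.54, 7.16, 7.44, 7.17 and 7.11 in C3H (0.80 ± 0.23, adjusted p = 0.0373). Its call was lost without NZO replicate 1, 2, 3 or 5 or C3H replicate 2, 4 or 5 (adjusted p = 0.0526 to 0.12) and with equal array medians, with robust moderation, with array weights or with the 3 narrowest arrays left out. The other activator called higher was its partner Clock and the other genes called lower were Ciart and Bhlhe41, and Dbp, a clock output factor named after its values were seen, differed by -1.16 ± 0.36 (adjusted p = 0.0569). Dbp was called with array weights, with only NZO and C3H arrays in the fit or without C3H replicate 3 (adjusted p = 0.000981 to 0.0337). Clock lost its call without 8 of the 10 mice, Ciart without 4 and Bhlhe41, which was dim on all 5 NZO arrays, without 2. No gene of the list was called higher without NZO replicate 1, 2, 3 or 5 or without C3H replicate 2, 4 or 5, 1 was called without C3H replicate 3, and 1 gene was called lower without C3H replicate 5. The labels do not give the hour at which livers were taken.

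Of 12 tested markers of liver endothelial cells, 6 were called lower in NZO and none higher, all 12 differences were below 0 and the median was -0.44. The mean of the list lay between 8.40 and 8.86 in NZO and between 8.87 and 9.26 in C3H. Dnase1l3, a DNase secreted by sinusoidal endothelium, read 9.49, 8.58, 8.94, 9.43 and 9.39 in NZO and 10.16, 10.01, 9.93, 10.37 and 10.44 in C3H (-1.02 ± 0.15, adjusted p = 9.79e-05). Clec4g, a lectin of the same cells, read 9.32, 8.66, 9.004, 9.27 and 9.17 in NZO and 9.72, 9.97, 9.50, 10.004 and 10.01 in C3H (-0.76 ± 0.12, adjusted p = 0.000178). Both were without overlap between the groups. Clec4g had 2 probe sets, of which the brighter is given, and the mean of both differed by -0.41 (adjusted p = 0.00033).

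Kdr, the receptor for vascular endothelial growth factor, and the phosphatase Ptprb differed by -0.69 ± 0.14 and -0.55 ± 0.11 (adjusted p = 0.00282 and 0.00191), and Oit3 and the scavenger receptor Stab2 by -0.53 ± 0.12 and -0.43 ± 0.11 (adjusted p = 0.00607 and 0.0119). Not all markers of these cells followed: Stab1 differed by -0.16 ± 0.084, Lyve1 by -0.015 ± 0.17 and Fcgr2b by -0.25 ± 0.11 (adjusted p = 0.347, 0.989 and 0.26). Fcgr2b was called with array weights or with array spread as a covariate (adjusted p = 0.0394 to 0.0444). The number called lower was 6 or 7 without any 1 of the 10 mice. In whole liver, fewer cells of a type and less RNA per cell cannot be told apart.

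Zone markers of the lobule were called in both directions. Of 12 tested genes of the pericentral zone 2 were higher and 2 lower (33.3%, beside 6.6% of all tested genes). The higher ones were the ammonium transporter Rhbg (0.97 ± 0.14, adjusted p = 4.52e-05) and the dicarboxylate carrier Slc13a3 (0.90 ± 0.15, adjusted p = 0.000359). The lower ones were Cyp27a1, described above, and the drug-metabolizing Cyp1a2 (-0.51 ± 0.12, adjusted p = 0.011). Of 10 periportal genes 2 were higher and 1 lower (30%), with the protease Ctsc as the one not yet named (0.78 ± 0.19, adjusted p = 0.0134).

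Stellate cell and matrix markers were lower in 3 of 13 tested (23.1%, beside 6.6% of all tested genes called), with a median of -0.11. The mean of the list on each array lay between 8.17 and 8.45 in NZO and between 8.43 and 8.63 in C3H, with overlap. Ecm1, a matrix glycoprotein, read 9.45, 9.01, 9.31, 9.62 and 9.48 in NZO and 10.15, 9.82, 9.80, 10.07 and 10.15 in C3H, without overlap (-0.62 ± 0.11, adjusted p = 0.000453). Dcn, decorin, differed by -0.65 ± 0.17 (adjusted p = 0.0162). The call of Dcn was lost without NZO replicate 2 (adjusted p = 0.0558) and with the 3 narrowest arrays left out. The remaining called marker lost its call without NZO replicate 2, 3 or 4 or C3H replicate 1, 2 or 5, and with equal array medians. When 1 mouse was left out, 1 to 3 markers were called lower, and without NZO replicate 2 Ecm1 was the 1 marker of the list called. Lrat, which stores retinol in stellate cells, differed by -0.50 ± 0.20 (adjusted p = 0.198). Lrat was called with array spread as a covariate (adjusted p = 0.0318).

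Macrophage markers were higher in 2 of 14 tested (14.3%, beside 6.6% of all tested genes called), with a median of 0.30. The mean of the list on each array lay between 8.56 and 9.21 in NZO and between 8.36 and 8.65 in C3H, with overlap. Mpeg1, the pore-forming perforin-2 of macrophages, read 10.30, 9.81, 9.51, 9.57 and 9.997 in NZO and 8.20, 8.46, 8.57, 8.57 and 8.64 in C3H (1.35 ± 0.17, adjusted p = 1.08e-05). Folr2, a folate receptor of resident macrophages, read 8.50, 8.12, 7.86, 8.35 and 8.48 in NZO and 6.77, 7.11, 6.99, 7.58 and 7.29 in C3H (1.11 ± 0.17, adjusted p = 0.00012). Neither overlapped between the groups. The defining Kupffer cell genes Clec4f, Vsig4 and Timd4 differed by -0.33 ± 0.12, 0.29 ± 0.22 and 0.055 ± 0.12 (adjusted p = 0.122, 0.611 and 0.911), and Clec4f was called with quantile normalization, with array weights, with array spread as a covariate or without NZO replicate 1 (adjusted p = 0.0243 to 0.0478).

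Tff3, a trefoil peptide of mucous epithelia that was listed as a bile duct marker, had the largest negative difference among the tested genes. It read 8.23, 8.20, 8.41, 8.15 and 7.64 in NZO and 11.27, 11.08, 11.82, 11.69 and 10.81 in C3H (-3.21 ± 0.24, a 9.24-fold difference, adjusted p = 3.26e-09), beside 10.63 ± 0.68 in B6 and 7.99 ± 0.16 in 129P2. The bile duct keratins Krt7 and Krt19 and the factor Sox9 differed by 0.018 ± 0.067, -0.04 ± 0.12 and -0.012 ± 0.12 (adjusted p = 0.961, 0.945 and 0.986). No tested marker of monocytes and dendritic cells (0 of 4), T and natural killer cells (0 of 4), B cells (0 of 3), erythroid cells (0 of 3), adipocytes (0 of 4), pancreas (0 of 4) or dividing cells (0 of 7) was called.

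**Figure D4:**
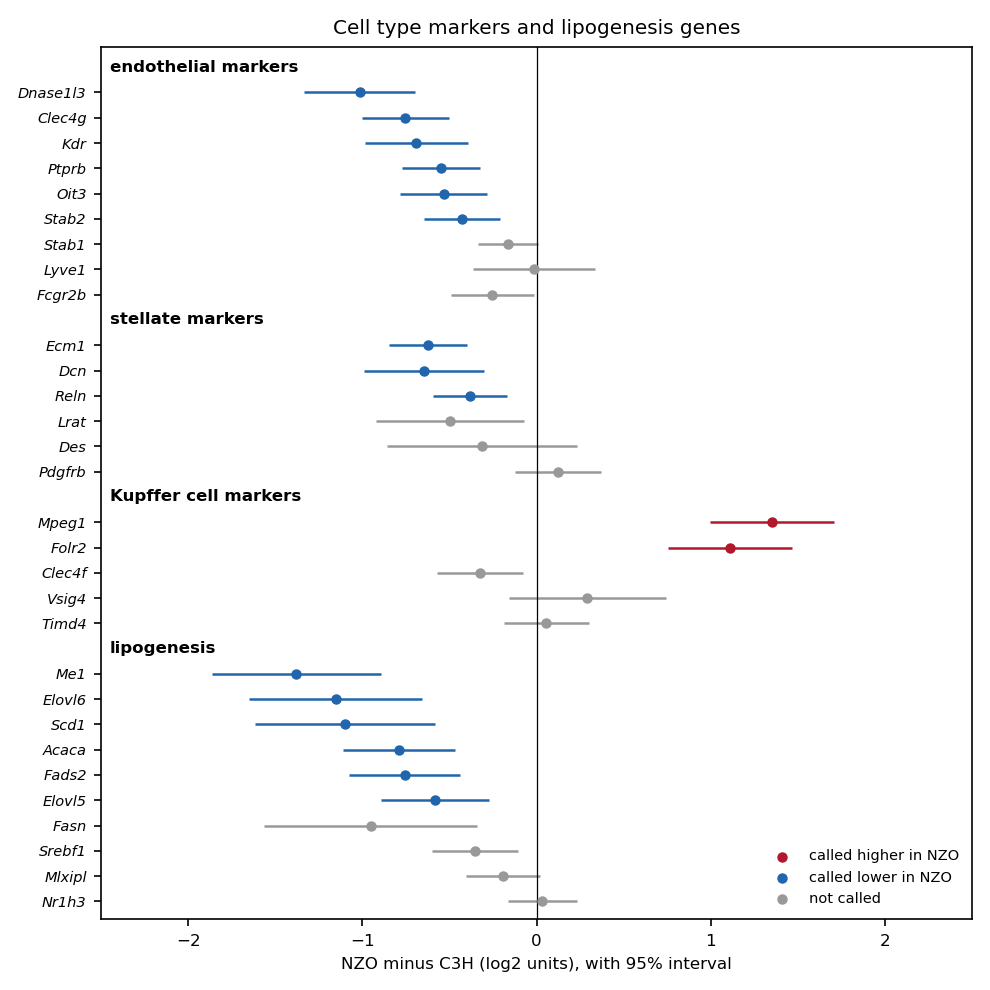
Points are NZO minus C3H differences (log2 units) and bars their 95% intervals from the limma fit, for cell type markers and lipogenesis genes, with genes called higher in red, called lower in blue and not called in grey. The 6 called endothelial markers and 6 lipogenesis genes lie to the left of 0, Mpeg1 and Folr2 lie to the right, and the intervals of Lyve1 and Nr1h3 span 0.

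Moxd1, a relative of the copper enzyme dopamine beta-hydroxylase, had a larger fitted difference than Saa2 but overlapped between the groups and is named after its values were seen. It read 9.47, 11.22, 10.32, 11.89 and 11.81 in NZO and 6.35, 6.11, 9.83, 7.45 and 6.39 in C3H, dim on 3 C3H arrays (3.72 ± 0.64, adjusted p = 0.000426). C3H replicate 3 lay above NZO replicate 1, and the other 4 C3H mice lay below every NZO mouse.

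Among the largest differences outside these lists, Cda, the cytidine deaminase, read 8.67, 8.79, 9.24, 9.04 and 8.96 in NZO and 7.48, 7.66, 7.46, 7.22 and 7.55 in C3H (1.47 ± 0.14, adjusted p = 2.27e-07). Pla2g7, which hydrolyses platelet-activating factor, read 8.72, 7.97, 8.01, 8.06 and 7.85 in NZO and 6.55, 6.68, 6.95, 6.81 and 6.75 in C3H, dim on 1 C3H array (1.38 ± 0.17, adjusted p = 8.23e-06). Plscr2, a phospholipid scramblase that was dim on 4 of 5 C3H arrays, was higher by 1.69 ± 0.16 (adjusted p = 1.11e-07). All 3 were without overlap. Rgs16, a brake on G-protein signalling, read 7.72, 7.68, 7.53, 8.21 and 7.95 in NZO and 10.76, 9.84, 8.22, 9.80 and 9.93 in C3H (-1.89 ± 0.39, adjusted p = 0.00295). Abhd1, of the alpha/beta hydrolase family, read 7.87, 7.99, 7.57, 7.81 and 7.52 in NZO and 10.07, 9.79, 9.71, 10.03 and 10.07 in C3H (-2.18 ± 0.11, adjusted p = 4.31e-12). Mid1, a microtubule-bound ubiquitin ligase, read 8.04, 7.30, 7.13, 8.26 and 8.19 in NZO and 10.10, 9.49, 9.44, 9.69 and 9.77 in C3H (-1.91 ± 0.17, adjusted p = 7.69e-08), beside 8.22 ± 0.21 in B6 and 8.16 ± 0.05 in 129P2.

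Some of the differences with the smallest p were near 2-fold or below it. Invs, the ciliary protein inversin, was higher by 0.95 ± 0.062 (adjusted p = 3.57e-10), Thnsl2, a threonine synthase-like protein, by 0.85 ± 0.066 (adjusted p = 7.49e-09) and the ascorbate-dependent reductase Cyb561 by 1.03 ± 0.081 (adjusted p = 7.49e-09). In each the groups did not overlap.

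Some called genes were dim on all 5 arrays of at least 1 strain: 23 that were higher in NZO were dim in C3H, and 23 that were lower were dim in NZO. Where the other strain was not dim on all 5 arrays, the difference is a bound, the mean of the brighter strain minus the 40th percentile of the arrays of the dimmer. Genes dim on all arrays of both strains, such as Trim30d, are counted here and have no bound. Obp2a, an odorant-binding protein, read 5.59, 5.90, 5.98, 5.65 and 5.87 in NZO, dim on all 5 arrays, and 7.46, 7.60, 10.35, 9.34 and 8.84 in C3H, so that NZO was at least 4.27-fold lower (adjusted p = 1.98e-05), with the C3H mice spread over more than 2 log2 units. Mme, the peptidase neprilysin, read 5.97, 5.58, 5.83, 5.78 and 5.81 in NZO, also dim on all 5 arrays, and 8.44, 8.94, 8.09, 8.10 and 8.93 in C3H and was at least 3.67-fold lower (adjusted p = 3.63e-11). Nat8f5, an acetyltransferase-like gene, read 8.48, 7.46, 8.44, 9.34 and 7.98 in NZO and 5.98, 5.77, 6.44, 6.11 and 6.50 in C3H, dim on all 5 arrays there, and was at least 3.27-fold higher in NZO (adjusted p = 5.33e-06).

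**Figure D5:**
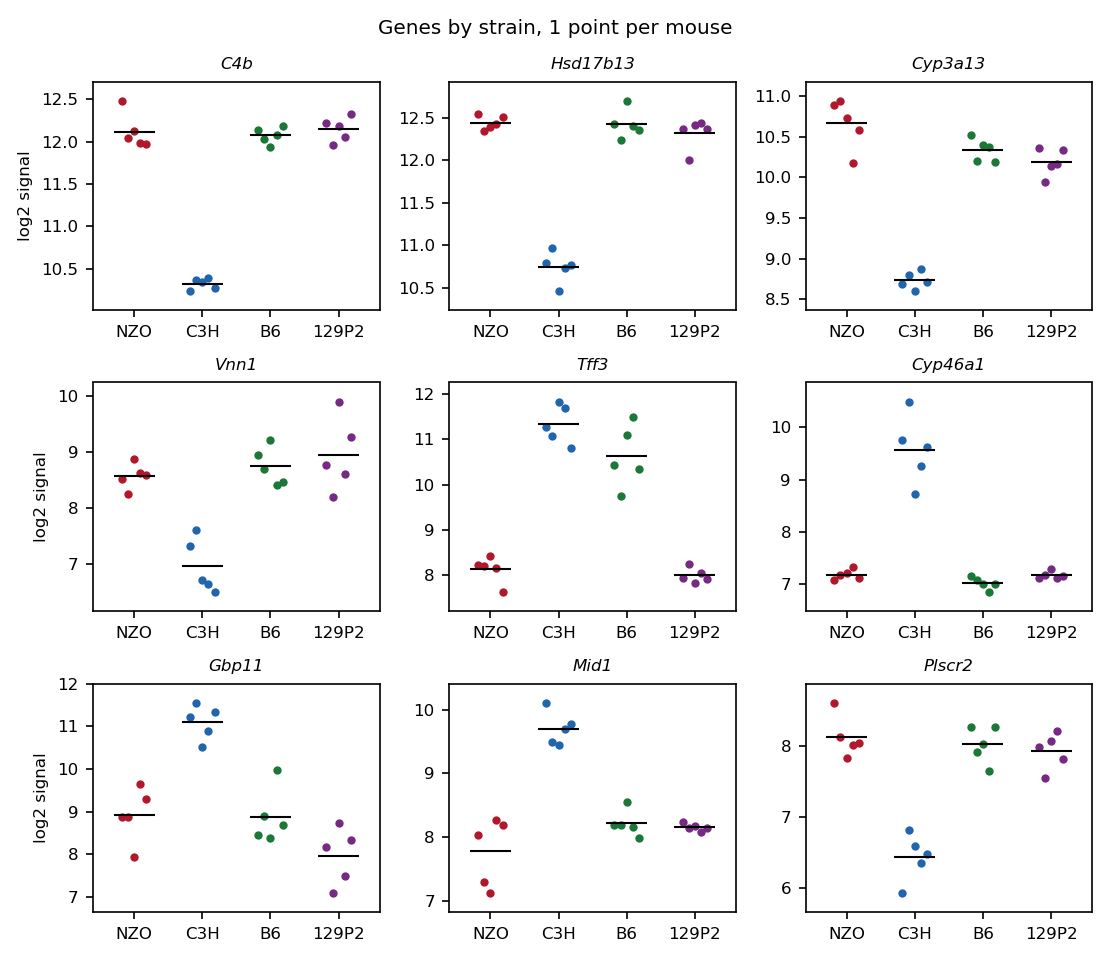
Each panel is 1 gene, with log2 signal on the y axis, 1 point per mouse and a line at the strain mean, for 5 mice each of NZO, C3H, B6 and 129P2. C4b, Hsd17b13, Cyp3a13, Vnn1 and Plscr2 are lowest in C3H with the other 3 strains above, Gbp11, Cyp46a1 and Mid1 are highest in C3H, and Tff3 is low in NZO and 129P2.

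Called genes lay on every autosome. The share of tested genes called ran from 4.78% on chromosome 12 to 9.42% on chromosome 3, and was 3.27% on the X chromosome. Chromosome 7, with Saa1, Saa2, Saa3, Hamp and Nudt19, held the largest number of 2-fold differences (16 of 1144 tested genes), followed by chromosome 5 with the Cyp3a genes (15 of 901). As a share of tested genes, chromosome 7 lay below chromosome 5, chromosome 3 (11 of 637) and chromosome 19 (8 of 490). Over all tested genes the share was 0.909%. Runs of at least 3 neighbouring tested genes called in the same direction numbered 8, with 16 genes in 5 runs higher and 9 genes in 3 runs lower. Beside the immunoproteasome, C4, Cyp2c and Cyp3a runs, Strada, Ccdc47 and Ddx42 on chromosome 11 were higher by 0.34 to 0.40, and A4gnt and Dzip1l on chromosome 9 by 1.06 and 0.41, with Cldn18 beside them dim on all 5 C3H arrays. No C3H array counted towards the filter on dim genes for Cldn18, so that its test depended on arrays where it was brighter. It was tested in 17 of the 24 alternatives. Its call completes that run of 3 and is 1 of the 16 in higher runs. Mrap2, Cep162 and Nt5e, also on chromosome 9, were higher by 0.35 to 0.94, and Scpep1 and Elobl on chromosome 11 lay in a lower run. A4gnt, Mrap2 and Cep162 were dim on 1 C3H array each. Elobl was dim on all 5 NZO arrays, none of which counted towards the filter for it. Leaving out 1 mouse ended the call of Ccdc47 for 7 of the 10 mice, of Mrap2 for 6 and of Cep162 for 3, and with the 3 narrowest arrays left out all 3 and Strada lost theirs. The order of genes is that of GRCm38.p6, and the runs are a description with no test.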

How the data were processed

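Liver RNA of 20 mice, 5 of each strain, was hybridised to whole-transcript arrays, 1 array per mouse as the titles number the animals. The authors deposited log2 values, which per the submitters' processing notes came from RMA (robust multi-array averaging) in Affymetrix Expression Console, versions not stated. The genome build behind the probe design was not given in the sources used here. Of 35556 probe sets, 21789 had 1 gene symbol in the platform annotation, 1621 had several and 12146 had none; only the first kind was used, with the brightest probe set per gene. A gene was tested where at least 5 of the 20 arrays lay above the array's 40th percentile. Strains were compared with limma 3.58.1 in R 4.3.3 (empirical Bayes with an intensity trend, Benjamini-Hochberg adjustment over all tested genes), fitted on all 4 strains, which share 1 estimate of the spread. The fit was tested on simulated data. The precision is limited by the 5 arrays per group, with a median SE of 0.0914 log2 units.

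Members and gene lists were chosen with earlier results of these data known. Genes were picked by rule, and the text names some of them, not all. The rules were Nudt19, the 20 largest differences each way without overlap and the 10 smallest p each way. They also took up to 6 called members and the first 3 uncalled per list, called cell type markers and runs of called neighbours. Others are said to be chosen after their values were seen, or are the ends of a range. Ddx58, Ifih1, Trim30d and Fads1 were also chosen after their values were seen. Predicted genes, clones and small RNAs were counted and not named. Promoter windows were available for 11218 tested genes. Alternatives covered the filter, scaling, moderation, array weights, samples in the fit, probe set rule, stricter tests, array spread and leaving out each mouse. The replicate numbers pair no mice.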

Additional observations from a re-analysis of the deposited data

Results flagged for a closer look

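Values of single mice were compared within each strain for 328 groups of 5. In 16 of them the highest or lowest mouse stood apart by Dixon's criterion. Chance gives about 1 in 20 groups, so that the total is no more than chance would give. C3H replicate 3 was the mouse in 9 of the 16, and as values of 1 array these 9 are not independent. It was the lowest C3H mouse for Fcgr2b (9.11, nearest 9.50), Gys2 (11.21, nearest 11.74), Kdr (8.87, nearest 9.33), Osmr (6.79, nearest 7.15), Plin2 (11.27, nearest 11.48), Plin3 (8.68, nearest 8.93) and Sort1 (8.58, nearest 9.09). It was the highest for Plin1 (7.49, nearest 7.25) and Saa3 (8.60, nearest 7.48). C3H replicate 2 was the lowest for Selenbp2 (11.79, nearest 12.11).

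NZO replicate 1 was the highest NZO mouse for Arntl (8.67, nearest 8.02), F12 (11.74, nearest 11.49), Pla2g7 (8.72, nearest 8.06) and Trim12c (8.77, nearest 8.07). NZO replicate 2 was the lowest for Lrat (7.59, nearest 8.17), and NZO replicate 4 the highest for Lyve1 (8.43, nearest 8.12).

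Probe sets left out of the comparison carried differences too. Of 6054 tested probe sets without a gene symbol 277 were called, 93 of them at 2-fold or more. Of 993 with several symbols 103 were called, 46 of them at 2-fold or more.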

How the results depend on the processing

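Of 134 named genes called in the report, 115 kept their call and direction in every alternative in which they were tested other than the stricter tests (a fold above 1.2, or adjusted p under 0.01), 77 kept it in those as well, and none reversed. Mx1 and Cldn18 were tested in only 17 of the 24 alternatives. The 30 named genes that were not called gave 30 values past the threshold over 716 in all, from 9 genes, each named in the report with its settings. Leaving out 1 mouse gave 735 to 964 called genes, 397 to 496 higher and 331 to 525 lower, and 726 to 820 of the calls were shared with the 936. The count was 1430 with array weights (788 lower), 220 against a fold of 1.2 (121 higher, 99 lower, 210 without overlap) and 564 at adjusted p under 0.01 (304 and 260). With array spread as a covariate 703 genes were lower. The share of calls that were higher, 53.2%, was 44.9% with array weights and 47.4% to 57.5% without 1 mouse other than C3H replicate 3, where it was 45.5%. Genes dim in 1 strain numbered 3 (C3H) and 7 (NZO) with the floor at the 30th percentile and 67 and 46 at the 50th. Runs of at least 2 numbered 39 higher and 33 lower. The cause was not tested, other than that the stricter tests and floors select fewer or more genes by construction.

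Lists without a call gained some: 2 hepatocyte markers were lower with array weights and 1 with the spread covariate, 1 gene of interleukin-6 signalling was higher with quantile normalization, 1 Cyp4 gene was higher and 1 pancreas marker lower with array weights, and 1 neutrophil marker was higher with array weights, with the spread covariate, with no filter on dim genes and without the 3 narrowest arrays. Of the class II genes 2 were higher with only NZO and C3H arrays in the fit, and 1 with the stricter filter, quantile normalization or array weights. With the 3 narrowest arrays left out 1 bile acid gene was higher.

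Some values near 0 that were not called changed sign. Alb was at 0.013 with quantile normalization, Nr1h3 at -0.042 and Timd4 at -0.029 with array weights, and Sox9 at 0.015 with the spread covariate. Without the 3 narrowest arrays Krt7 was at -0.016, Lyve1 at 0.006 and Sox9 at 0.048. Without 1 mouse, Il6st ran from -0.09 to 0.016, Krt19 from -0.071 to 0.018, Krt7 from -0.026 to 0.068, Lyve1 from -0.117 to 0.065, Nr1h3 from -0.009 to 0.07, Plin2 from -0.066 to 0.016, Sox9 from -0.146 to 0.068 and Timd4 from -0.02 to 0.127. No paired analysis was possible because the labels give the strains no shared pairing of mice.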
